A study of Mus musculus with 8 samples.

Results

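Transcript levels of 7 transcriptional regulators of effector regulatory T cell (Treg) differentiation, Prdm1, Irf4, Batf, Batf3, Id2, Myb and Foxo3, were compared between Treg-rich T cell fractions of pregnant mice with and without a functional Il10 gene. The genes were chosen by name, and each was read from the deposited table by the probe set that carries its symbol alone, taking the brightest where there were several. All 7 were found among the 6986 genes tested. The samples were CD4+CD25+ cells sorted by flow cytometry at day 9.5 post coitus from uterus-draining (para-aortic) lymph nodes. There were 4 arrays of the IL10-/- label and 4 of the IL10+/+ label, and RNA of 2 to 4 mice was pooled for each array, so that the replicates were separate pools. The IL10-/- mice carried an Il10 mutation, present in every cell, that had been backcrossed into the C57BL/6 colony from which the IL10+/+ mice came. The mutants alone are said to have received oxytetracycline, at 2 mg/ml in drinking water, so genotype and antibiotic cannot be told apart.

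Treg that meet antigen and inflammatory signals pass from a resting state into an effector state, in which they enter tissues and make suppressive mediators such as interleukin 10. T cell receptor signals induce IRF4 and BATF, which bind DNA together, BATF as a dimer with a JUN protein, and open the loci of the effector programme. One of their targets is Prdm1, which encodes the repressor Blimp-1, and Blimp-1 in turn is required in mice for Treg to make interleukin 10. Id2 inhibits the E proteins, Myb is needed for effector Treg in mice, and the FOXO factors, which are excluded from the nucleus by AKT signalling, favour the resting state. The comparison addresses whether this set of regulators was transcribed at another level in the fraction from mice without interleukin 10.

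Values are log2 expression values as deposited, and a difference of 1 on this scale is a doubling of signal. Each array gave a median of 6.97 to 7.12 over the tested genes. A pair of arrays, 1 of each label, stood apart in the spread of their values. IL10-/- replicate 2 had an interquartile range of 2.15 and IL10+/+ replicate 4 one of 2.17, where the other 6 had 2.32 to 2.58. Il10 itself, the targeted gene, read 8.65 to 9.42 in the arrays labelled IL10-/- and 7.50 to 8.51 in those labelled IL10+/+, so a signal was present under the mutant label, above that of every IL10+/+ array (adjusted p = 0.405 by limma). Which part of the gene was mutated is not stated in the labels, so this probe set checks no label, and all directions below rest on the labels. Of the Treg markers, 3 of 7 were measured. Ctla4, an inhibitory receptor gene, read 10.88 to 11.36 in the arrays labelled IL10-/- and 11.18 to 11.49 in those labelled IL10+/+. Ikzf2, which encodes Helios, read 11.19 to 11.49 in the arrays labelled IL10-/- and 11.44 to 11.75 in those labelled IL10+/+. The third, Ikzf4, read 8.65 to 9.31 and 8.97 to 9.37 in that order. All 3 had a lower mean under the IL10-/- label. The differences of Ctla4, Ikzf2 and Ikzf4 were -0.11, -0.19 and -0.096 (limma, adjusted p = 0.999 each). Foxp3, Il2ra and Cd4 were not analysed here, so the Treg share of each pool is not known. In such bulk RNA, fewer cells of a type and less RNA per cell cannot be told apart.

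None of the 7 regulators passed the test between the groups. By limma with Benjamini-Hochberg adjustment over all 6986 genes, 0 of 7 were past an adjusted p of 0.05 in either direction, where 2 genes, or 0.0286% of all tested, were past it. At an unadjusted p under 0.05 the count was 0 of 7, against 4.78% of all genes. In 0 of 7 did the 4 arrays of each label keep apart without overlap, against 2.92% of all genes. The means of 5 regulators were higher and those of 2 were lower in the arrays labelled IL10-/-, with a median difference of 0.088, while 50.8% of all genes had a positive difference and their median was 0.0025. With any 1 array left out, the positive count was 4 to 6 of 7 and the median ran from 0.027 (without IL10+/+ replicate 2) to 0.14 (without IL10-/- replicate 1), with 0.052 without IL10-/- replicate 3, and the count was 4 of 7 with median centring. The 7 differences ran from -0.14 for Myb to 0.28 for Batf3. The SD within groups, pooled over both, lay between 0.13 and 0.30 for the 7 regulators, with a median of 0.18 over all genes.

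**Figure D1:**
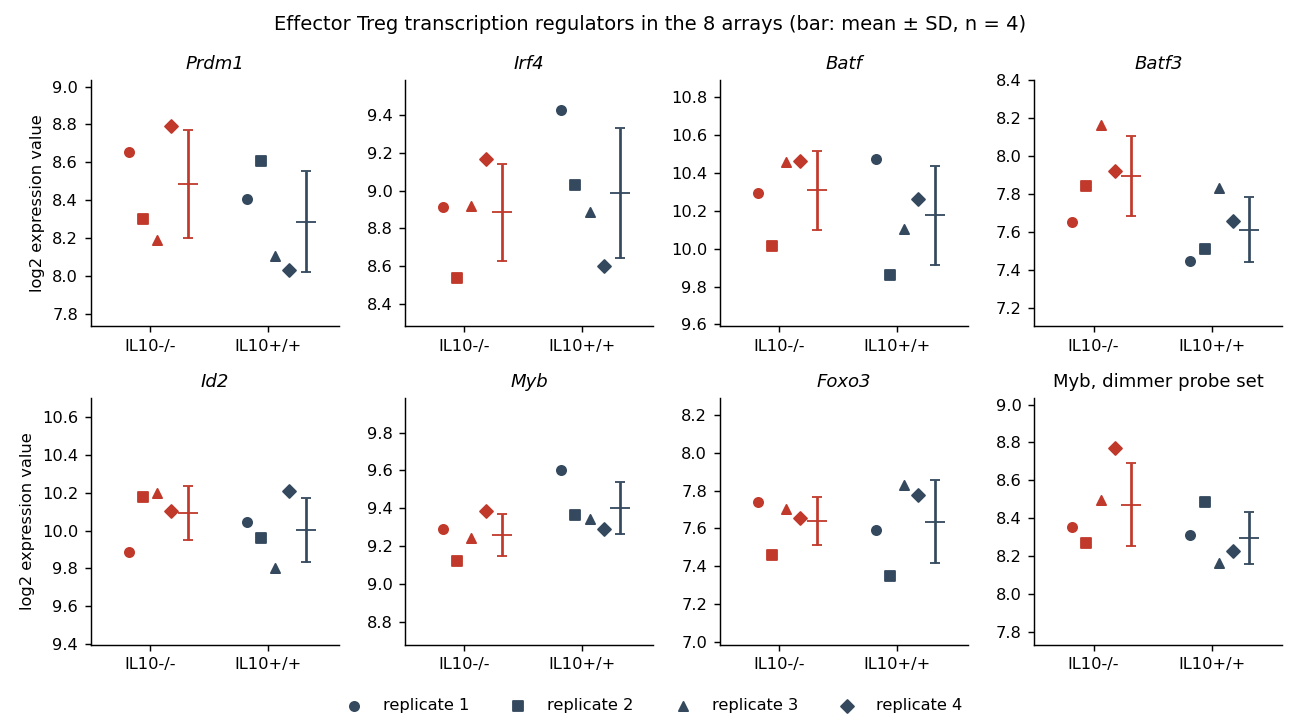
Log2 expression values (vertical axes, of equal span) of the 7 regulators and of the dimmer probe set named Myb, in arrays labelled IL10-/- (red, left) and IL10+/+ (dark blue, right). Marker shapes give the replicate number and bars the mean ± SD of 4 arrays. The points of the 2 groups overlap in every panel.

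Prdm1, the gene for Blimp-1, differed by less than the spread between pools. It read 8.66, 8.30, 8.19 and 8.79 in replicates 1 to 4 labelled IL10-/-, against 8.41, 8.61, 8.11 and 8.03 in replicates 1 to 4 labelled IL10+/+. Replicates 1 and 4 of the IL10-/- label lay above every IL10+/+ array, whereas the other 2 lay among them. Prdm1 averaged 8.48 ± 0.29 under the IL10-/- label and 8.29 ± 0.27 under the IL10+/+ label (SD, n = 4 each), with a difference of 0.20 (SE 0.17) or 1.15-fold, and its 95% interval reached from 0.885-fold to 1.48-fold. In limma the adjusted p was 0.999, and an exact permutation test (two-sided, all 70 ways to assign 4 and 4 arrays) gave p = 0.343. Of the 16 pairings of an IL10-/- with an IL10+/+ array, 12 had the higher value under the IL10-/- label. Without IL10-/- replicate 4 the difference was 0.095, and without IL10+/+ replicate 2 it was 0.30.

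The 250 bases before the annotated start of Prdm1 are shown because they hold motifs of other regulators in the set. They lie at chr10:44458749-44458998 on the minus strand of GRCm38.p6 (RefSeq) and are printed 5′ to 3′ along the gene. The capitals mark the FOXO motif GTAAACA, 231 to 225 bases before the start, and the AP-1 motif TGANTCA, the kind bound by BATF with a JUN partner, 48 to 42 bases before it.
Prdm1: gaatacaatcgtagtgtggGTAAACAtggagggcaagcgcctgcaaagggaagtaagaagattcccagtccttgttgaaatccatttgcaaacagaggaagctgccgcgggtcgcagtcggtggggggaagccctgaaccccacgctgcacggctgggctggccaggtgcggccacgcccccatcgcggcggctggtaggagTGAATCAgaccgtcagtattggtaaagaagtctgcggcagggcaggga

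Irf4, the interferon regulatory factor induced by T cell receptor signals, had a lower mean in the arrays labelled IL10-/-, again within the spread. Its values were 8.92, 8.54, 8.92 and 9.16 in IL10-/- replicates 1 to 4 and 9.42, 9.03, 8.89 and 8.60 in IL10+/+ replicates 1 to 4. The highest and second lowest of the 8 values both belonged to the IL10+/+ label. Irf4 averaged 8.88 ± 0.26 under the IL10-/- label and 8.99 ± 0.34 under the IL10+/+ label (SD, n = 4 each), and the difference of -0.10 (SE 0.18), or 0.932-fold, had a 95% interval of 0.706-fold to 1.23-fold (limma, adjusted p = 0.999, exact permutation p = 0.686). The sign rested on single arrays. Without IL10+/+ replicate 1 the difference was 0.045, and without IL10-/- replicate 2 it was 0.013.

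Batf, the AP-1 family partner of IRF4, read 10.30, 10.02, 10.46 and 10.46 in IL10-/- replicates 1 to 4, against 10.47, 9.86, 10.10 and 10.26 in IL10+/+ replicates 1 to 4. The IL10+/+ label held both the highest and the lowest value. Batf averaged 10.31 ± 0.21 under the IL10-/- label and 10.17 ± 0.26 under the IL10+/+ label (SD, n = 4 each), with a difference of 0.13 (SE 0.15) or 1.10-fold, with a 95% interval of 0.870-fold to 1.38-fold (limma, adjusted p = 0.999, exact permutation p = 0.486). Leaving out IL10+/+ replicate 2 took the difference to 0.027. Leaving out both arrays that stood apart took it to 0.26, with an unadjusted p of 0.136.

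The region before the start of Batf is shown as the only one of the 7 with a match to the Blimp-1 motif GTGAAAG, the motif of the repressor that Prdm1 encodes. It lies at chr12:85686470-85686719 on the plus strand of GRCm38.p6 (RefSeq) and is printed 5′ to 3′. The capitals mark the match, 163 to 157 bases before the start, which reads as the reverse complement on this strand.
Batf: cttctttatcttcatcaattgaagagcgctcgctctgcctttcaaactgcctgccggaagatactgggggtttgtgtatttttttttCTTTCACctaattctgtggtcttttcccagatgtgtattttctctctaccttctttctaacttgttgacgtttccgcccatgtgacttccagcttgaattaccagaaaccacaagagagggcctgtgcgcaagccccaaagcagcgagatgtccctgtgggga

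Batf3, a shorter relative of Batf known above all for its role in the dendritic cells that cross-present antigen, had the smallest p of the 7. It read 7.65, 7.84, 8.16 and 7.92 in IL10-/- replicates 1 to 4 and 7.45, 7.51, 7.83 and 7.66 in IL10+/+ replicates 1 to 4. IL10-/- replicates 2, 3 and 4 lay above every IL10+/+ array, and only IL10-/- replicate 1 lay among them. Batf3 averaged 7.90 ± 0.21 under the IL10-/- label and 7.61 ± 0.17 under the IL10+/+ label (SD, n = 4 each), with a difference of 0.28 (SE 0.13) or 1.22-fold. The 95% interval ran from 0.994-fold to 1.49-fold, the unadjusted p was 0.0555 and the exact permutation p was 0.0857. Batf3 ranked 375 of 6986 genes by p, and its adjusted p by limma was 0.999. The value was higher under the IL10-/- label in 14 of 16 pairings. It was 0.19 without IL10-/- replicate 3 and 0.37 without IL10-/- replicate 1.

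The defining dendritic cell markers fixed for this comparison were not analysed here (0 of 5 measured). Of a longer list of 23 dendritic cell genes, 5 were measured, with 0 passed, 3 positive differences and a median of 0.06, which ran from 0.0079 (without IL10+/+ replicate 3) to 0.098 (without IL10+/+ replicate 4) with 1 array left out. Their mean log2 value per array ranged from 8.58 to 8.88 in the arrays labelled IL10-/- and from 8.33 to 8.74 in those labelled IL10+/+. Cd24a, a surface glycoprotein gene that B cells and other cells also express, differed by 1.53 (SE 0.41, unadjusted p = 0.00373, adjusted p = 0.650 by limma). In IL10+/+ replicate 2 it read 10.57, within the range of the IL10-/- label (10.03 to 11.38). The other IL10+/+ arrays read 8.51 to 9.10. Cd24a had the largest difference of the 5 and weighed most on the means per array. The T cell chemokine gene Ccl5, which appears in the list as a dendritic cell product, differed by -0.16, and the integrin gene Itgae by 0.14. The remaining genes, Wdfy4 and Clec10a, differed by 0.061 and -0.062. The part of such cells in the Batf3 values was not tested.

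Id2, the inhibitor of E proteins, was among the steadier genes of the set. It read 9.89, 10.18, 10.20 and 10.10 in IL10-/- replicates 1 to 4, against 10.05, 9.96, 9.80 and 10.21 in IL10+/+ replicates 1 to 4. The 8 values spanned 0.41, the narrowest range of the 7 genes, and IL10+/+ arrays held both its ends. Id2 averaged 10.092 ± 0.142 under the IL10-/- label and 10.005 ± 0.169 under the IL10+/+ label (SD, n = 4 each), with a difference of 0.088 (SE 0.12) or 1.06-fold. The 95% interval was 0.887-fold to 1.27-fold (limma, adjusted p = 0.999, exact permutation p = 0.486). Id2 is also a gene of innate lymphoid cells, and 4 of 12 genes listed for those cells were measured. Their mean per array was 9.46 to 9.60 in the arrays labelled IL10-/- and 9.67 to 9.88 in those labelled IL10+/+. Of the 4, 0 passed, 3 were negative and 1 was positive. The receptor gene Il17rb differed by -0.68 (SE 0.21, adjusted p = 0.742 by limma), the receptor gene Il7r by -0.12 and Arg1, which encodes arginase, by -0.20, while the receptor gene Il18r1 differed by 0.059. Il17rb had the largest difference of the 4 and weighed most on the means per array. Arg1 read 8.02 in IL10+/+ replicate 4, against 7.01 to 7.17 in the other IL10+/+ arrays. Il7r and Il17rb are also transcribed in T cells. The part of these cells in the Id2 values was not tested.

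Myb encodes a DNA-binding factor of progenitor and activated lymphoid cells. The brighter of its 2 probe sets read 9.29, 9.12, 9.24 and 9.39 in IL10-/- replicates 1 to 4 and 9.60, 9.37, 9.34 and 9.29 in IL10+/+ replicates 1 to 4. IL10+/+ replicate 1 was the highest, IL10-/- replicate 2 the lowest, and the rest overlapped. Myb averaged 9.26 ± 0.11 under the IL10-/- label and 9.40 ± 0.14 under the IL10+/+ label (SD, n = 4 each), with a difference of -0.14 (SE 0.11) or 0.907-fold. The 95% interval was 0.770-fold to 1.07-fold (limma, adjusted p = 0.999, exact permutation p = 0.200). Without IL10+/+ replicate 1 the difference was -0.073.

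The dimmer probe set named Myb gave the opposite sign. It read 8.35, 8.27, 8.49 and 8.77 in IL10-/- replicates 1 to 4, against 8.31, 8.48, 8.16 and 8.22 in IL10+/+ replicates 1 to 4. It averaged 8.47 ± 0.22 under the IL10-/- label and 8.30 ± 0.14 under the IL10+/+ label (SD, n = 4 each), and the difference was 0.17 with a 95% interval of -0.11 to 0.46 (limma, adjusted p = 0.999). The strand that each probe set reads is not stated in the labels. Myb lies on the minus strand, as do 39 of the 40 named neighbours of the brighter probe set with 1 known strand, taking 25 on each side in order of probe set number. Of the 37 such neighbours of the dimmer probe set, 36 lie on the plus strand, opposite to Myb. The 2 probe sets therefore need not read the same transcript, and the value of the brighter is the one given for Myb here.

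Foxo3, a forkhead factor of the resting state, had nearly equal means. It read 7.74, 7.46, 7.70 and 7.65 in IL10-/- replicates 1 to 4 and 7.59, 7.35, 7.83 and 7.78 in IL10+/+ replicates 1 to 4. The IL10+/+ arrays held the lowest and the 2 highest values, with all IL10-/- arrays between them. Foxo3 averaged 7.64 ± 0.13 under the IL10-/- label and 7.64 ± 0.22 under the IL10+/+ label (SD, n = 4 each), with a difference of 0.0024 (SE 0.13). The 95% interval of 0.826-fold to 1.22-fold still allows changes of that size in either direction (limma, adjusted p = 0.999, exact permutation p = 1). The sign of so small a difference turned with the setting, from -0.094 without IL10+/+ replicate 2 to 0.11 without both arrays that stood apart.

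**Figure D2:**
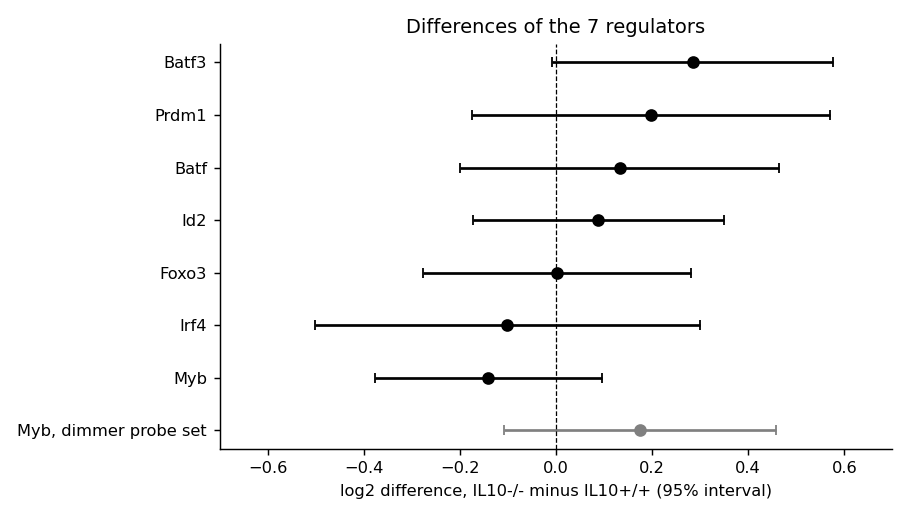
Log2 differences (horizontal axis, IL10-/- minus IL10+/+) of the 7 regulators and, in grey, of the dimmer probe set named Myb. Bars are 95% intervals from limma. Every interval includes 0, and that of Batf3, from -0.01 to 0.58, includes it by the smallest margin.

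The intervals bound what these 8 arrays leave possible. The widest belonged to Irf4, from -0.50 to 0.30, and the narrowest to Myb, from -0.38 to 0.10. Prdm1, at most 0.57, and Batf3, at most 0.58, had the highest upper limits. For no regulator did the interval reach a difference of 1 in either direction.

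Across arrays, the regulators did not move as 1 block. IL10-/- replicate 4 was the only array in which 7 of 7 regulators lay above their own mean over the 8 arrays. Its deviations were led by Prdm1 at 0.40 and Irf4 at 0.23. IL10-/- replicate 2 had 2 of 7 above their mean and the lowest median deviation, -0.18, with Irf4 at -0.40. In IL10+/+ replicate 1, 3 regulators had their highest value of all arrays, Irf4, Batf and Myb, and Batf3 had its lowest. In IL10+/+ replicate 2, Prdm1 stood 0.22 above its mean while Batf stood at -0.38 and Foxo3 at -0.29. Irf4 and Batf, whose products act as partners, thus lay on the same side of their means in some pools and on opposite sides in others. The 4 arrays of a label differed among themselves by 0.26 (Myb) to 0.62 (Irf4) in the IL10-/- group and by 0.31 (Myb) to 0.82 (Irf4) in the IL10+/+ group.

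**Figure D3:**
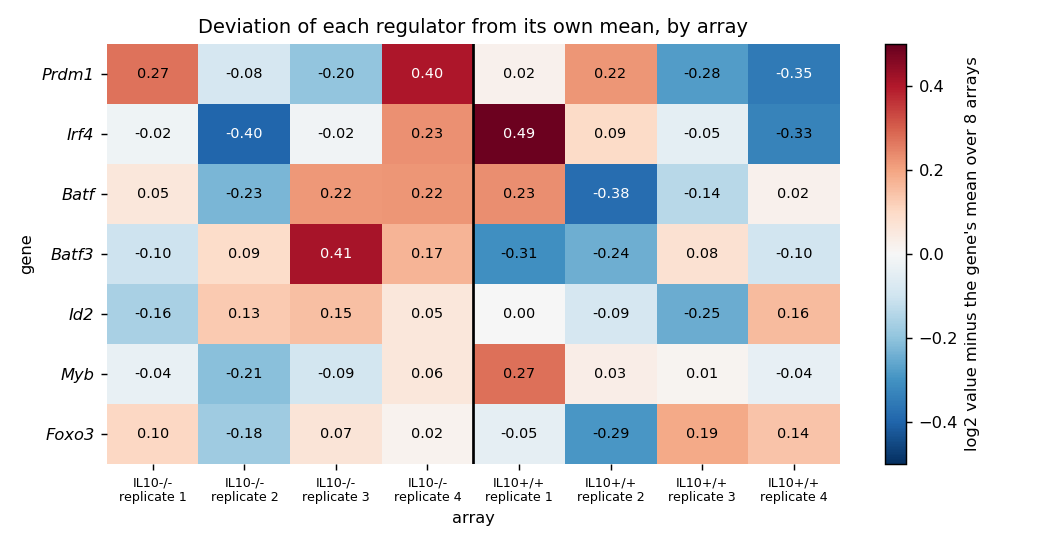
Deviation of each regulator (rows) from its own mean over the 8 arrays, in log2 units (colour and printed value), for the arrays labelled IL10-/- (left of the line) and IL10+/+ (right). The column of IL10-/- replicate 4 is above the mean throughout, and Irf4 in IL10+/+ replicate 1 holds the highest deviation, 0.49.

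Other settings left the count of regulators past the threshold at 0 of 7 in each of the 16 alternatives. Prdm1, Batf, Batf3 and Id2 had a positive difference in 16 of 16 of them, with ranges of 0.095 to 0.30, 0.027 to 0.26, 0.19 to 0.37 and 0.020 to 0.16 in that order. Irf4 was negative in 14 of 16 and Foxo3 positive in 10 of 16. Myb was negative in 15 of 17, the count including its dimmer probe set. These tallies overstate how often the sign was tested. Trend and robust variance, the replicate block and the limit to genes above the median signal returned the main difference exactly. Averaging over probe sets did so too, except for Myb. The positive count of Foxo3 thus includes its main value, 0.0024, repeated under each of these settings. The remaining alternatives reused the same arrays, so they are not independent of each other. The lowest adjusted p of any regulator was 0.790, for Batf3 without IL10+/+ replicate 4.

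**Figure D4:**
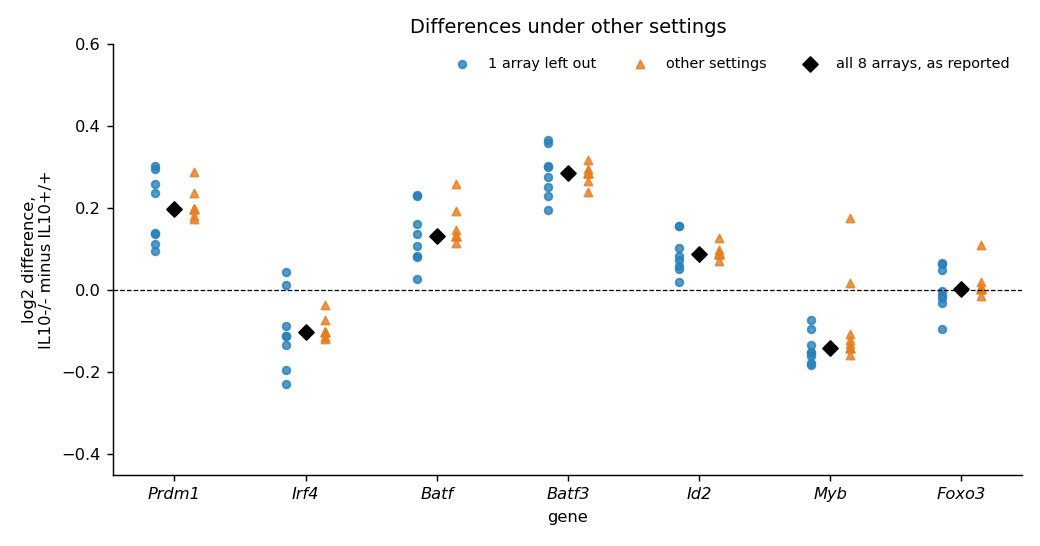
Log2 differences of the 7 regulators (vertical axis, IL10-/- minus IL10+/+) with all 8 arrays (black diamonds), with 1 array left out (blue circles) and under the other settings (orange triangles). Batf3 stays between 0.19 and 0.37, whereas the values of Irf4, Myb and Foxo3 lie on both sides of 0.

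For each regulator, the genes of most similar pattern were found by the mean over the 8 arrays of the absolute difference between 2 genes' log2 values, each after its own mean was taken away. For Prdm1 these were Oxr1 (0.08) and Gtf3c3 (0.09), where the median over all genes was 0.28. For Irf4 they were Rcor1 and Wars (0.08 each, median 0.27). For Batf they were Ptp4a3 and Adck5 (0.06 each, median 0.24), and for Batf3 the pseudogene Vmn1r-ps103 and Prr5 (0.07 each, median 0.22). Id2 was matched most closely by Gtf2a1 (0.03) and Wdfy4 (0.05), with a median of 0.17. Myb was matched by Hdac4 and Dync1h1 (0.03 each, median 0.18) and Foxo3 by Ush1g (0.03) and Txndc16 (0.04, median 0.18). These are the closest over 8 points among the genes tested, leaving out gene model names (Gm or LOC with digits, or ending in Rik). Genes that vary little are close to each other by this measure. No regulator was among the 2 genes kept for another. With only 2 kept out of so many genes tested, that absence does not tell how the regulators relate.

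The sequence before the start of all 7 genes was searched on both strands for motifs of the factors themselves, over 250 bases per gene and in 32851 RefSeq windows of the same length. The AP-1 motif TGANTCA was present at Prdm1 alone among the 7 and in 6.75% of all windows. The FOXO motif GTAAACA was likewise found at Prdm1 alone, against 3.17% of windows. The Blimp-1 motif GTGAAAG was found at Batf alone, against 3.57%. The IRF element, searched as 2 copies of GAAA set 2 bases apart, had a match at 0 of the 7 genes and in 2.98% of windows. The short E-box CANNTG, bound by E proteins, was in 66.2% of windows and the Myb motif AACNG in 74.2%. The E-box occurred at Prdm1, Batf, Batf3 and Id2, and the Myb motif at Prdm1, Irf4, Batf, Id2 and Foxo3. No match overlapped one to another motif. A match describes letters in this window and does not show binding.

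Genes that mark effector Treg had mostly positive differences, that is, higher means under the IL10-/- label. Of 44 listed, 15 were measured, 0 passed in either direction, 11 were positive and the median was 0.13. The list includes Il10, at 1.06 (SE 0.22, adjusted p = 0.405). Havcr2, the checkpoint receptor gene, differed by 0.86 (SE 0.27, adjusted p = 0.742), and Gzmb, which encodes granzyme B, by 1.30 (SE 0.50, adjusted p = 0.873). In IL10+/+ replicate 2, Gzmb read 9.88, above all arrays labelled IL10-/- (8.75 to 9.78), against 7.16 to 8.04 in the other IL10+/+ arrays. Havcr2 read 7.36 there, within the range of the IL10-/- label (7.00 to 7.61), against 5.98 to 6.49 in the other IL10+/+ arrays. Other positive genes included Il1r2 (0.49), Lgals3 (0.32) and Lgals1 (0.32). The negative genes were Cd83 (-0.23), Ptger4 (-0.19), Pdcd1 (-0.15) and Ctla4 (-0.11). By limma, 5 of the 15 had an unadjusted p under 0.05, against 4.78% of all genes. The positive count was 10 to 13 with any 1 array left out and 11 without both arrays that stood apart, and the median ran from 0.078 (without IL10-/- replicate 4) to 0.21 (without IL10+/+ replicate 2). These genes were known from earlier results on the same arrays, so none of these counts is independent evidence.

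Genes of resting and central T cells had mostly negative differences. Of 23 listed, 7 were measured, 0 passed, 5 were negative and the median was -0.12. With 1 array left out, 4 or 5 were negative and the median ran from -0.16 to -0.059, weakest without IL10+/+ replicate 1 (-0.059), IL10+/+ replicate 2 (-0.064) and IL10-/- replicate 2 (-0.075). Bcl2, the survival gene, differed by -0.24 (SE 0.10) with all arrays labelled IL10-/- below all labelled IL10+/+ (unadjusted p = 0.0401, adjusted p = 0.999 by limma). Ramp1, a receptor subunit gene, differed the other way, by 0.50 (SE 0.12, unadjusted p = 0.00161, adjusted p = 0.524), with all arrays labelled IL10-/- (8.34 to 8.72) above all labelled IL10+/+ (7.86 to 8.17). Of all genes tested, 2.92% kept the 2 labels apart in either direction. Slamf6, a receptor of the SLAM family, differed by 0.20.

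Known FOXO target genes had mostly negative differences, and any relation of these to Foxo3, which differed by 0.0024, was not tested. Of 37 listed, 14 were measured, 0 passed, 13 were negative, against 49.2% of all genes, and the median was -0.10. Ddit4, an inhibitor of mTOR signalling, differed by -0.52 (SE 0.25), the chemokine receptor gene Cxcr4 by -0.34 (SE 0.24) and the antiproliferative gene Btg1 by -0.22 (SE 0.16). The count changed most with IL10-/- replicate 2. Without it 8 of 14 were negative and the median was -0.04, against -0.17 without IL10-/- replicate 1. Ddit4 read 7.34 in IL10-/- replicate 2, against 8.16 to 8.19 in the other arrays labelled IL10-/-. Without both arrays that stood apart, 12 were negative with a median of -0.050. Foxo1, the other main FOXO gene of T cells, was not analysed here.

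Regulators upstream of effector differentiation had mostly negative differences too, and some genes, such as Il7r and Rictor, stand in more than 1 list. Of 34 listed, 17 were measured, 0 passed, 14 were negative and the median was -0.08. The NF-kappaB inhibitor gene Tnfaip3 differed by -0.32 (SE 0.16) and Ikzf2 by -0.19 (SE 0.11), while Hif1a, of the response to low oxygen, differed by 0.22 (SE 0.10). Without IL10-/- replicate 2, 10 of 17 were negative and the median was -0.02. Without both arrays that stood apart, 13 of 17 were negative with a median of -0.058. The median was -0.051 without IL10+/+ replicate 1 and -0.14 without IL10+/+ replicate 4.

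The family members and partners of the regulators were measured only in part. Of 18 AP-1 and related bZIP genes, 6 were measured, with 0 past the threshold, 4 negative and a median of -0.04. The negatives were 2 to 5 with 1 array left out, and the median turned positive without IL10-/- replicate 2 (0.010), IL10-/- replicate 3 (0.0062) or IL10+/+ replicate 3 (0.017), with -0.084 as its lowest value. Atf4 differed by -0.15 (SE 0.13), Fos by -0.25 (SE 0.24) and Nfil3 by 0.07 (SE 0.12). Of 11 other interferon regulatory factor genes and their partners, 2 were measured and 0 passed, Irf9 at -0.15 (SE 0.26) and Irf1 at -0.07 (SE 0.16). Without IL10-/- replicate 2 both were positive, and without both arrays that stood apart both were negative. Of 12 other Id, E protein, Myb and Foxo family genes, 3 were measured and 0 passed, Mybl1 at 0.17 (SE 0.32), Id4 at 0.08 (SE 0.10) and Tcf3 at -0.08 (SE 0.19), with a median that turned to -0.019 without IL10+/+ replicate 3. Of 12 other PRDM genes, 2 were measured and 0 passed, Prdm14 at -0.18 (SE 0.13) and Prdm4 at -0.07 (SE 0.11).

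**Figure D5:**
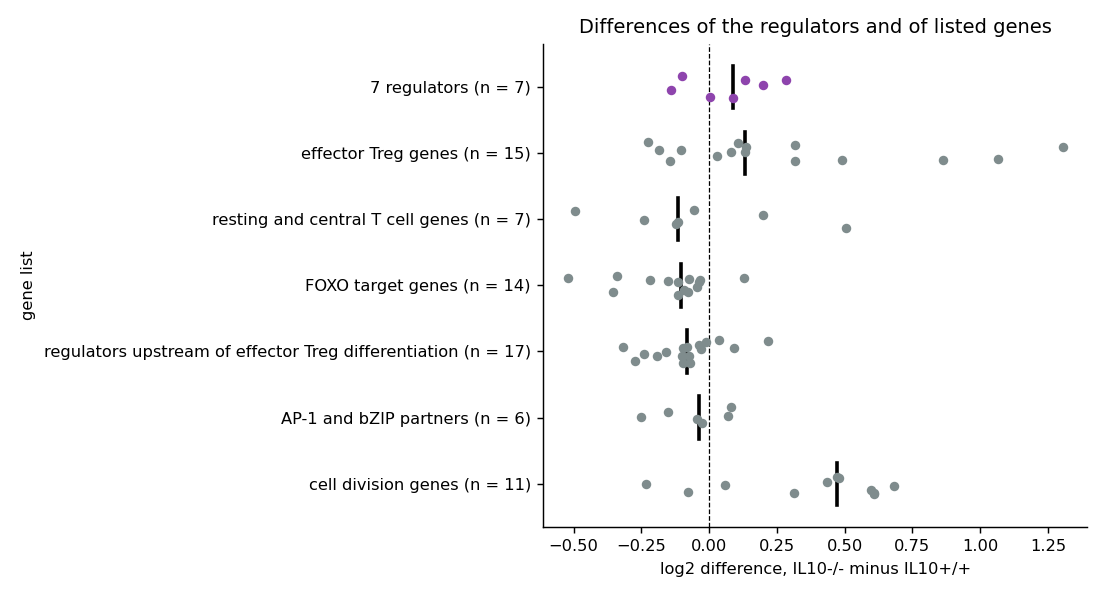
Log2 differences (horizontal axis, IL10-/- minus IL10+/+) of the 7 regulators (purple) and of the measured genes in 6 lists (grey), 1 point per gene, with vertical scatter only to separate points. Black bars are medians, from -0.12 for resting and central T cell genes to 0.47 for cell division genes.

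Cell division genes had mostly positive differences. Of 32 listed, 11 were measured, 0 passed, 9 were positive, against 50.8% of all genes, and the median was 0.47. Top2a differed by 0.61 (SE 0.16, adjusted p = 0.624 by limma), Pbk by 0.61 (SE 0.18) and Hmmr by 0.68 (SE 0.23). The negative genes were Mcm6 (-0.23) and Tk1 (-0.077), and Mcm3 differed by 0.059. Any relation of these genes to Myb, whose probe sets differed in sign, was not tested. With 1 array left out, 8 or 9 were positive, and the median ran from 0.29 (without IL10+/+ replicate 1) to 0.73 (without IL10+/+ replicate 2), with 0.31 without IL10+/+ replicate 4. Treg identity and CD4 T cell genes, 9 measured of 29, had 7 negative differences and a median of -0.10, with 0 passed. Without IL10-/- replicate 2, 4 of 9 were negative and the median was 0.0070. Without both arrays that stood apart, 7 of 9 were negative with a median of -0.032. With all arrays, the 2 positive genes were Socs2 and Themis. Socs2, a feedback inhibitor of cytokine signals, differed by 0.56 (SE 0.27) and Themis, of T cell development, by 0.21 (SE 0.12), while Ikzf2, given above, was among the negative ones.

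Prdm1 and Irf4 are also transcribed in plasma cells, and Irf4 in B cells. Of 13 plasma cell genes, 5 were measured, 0 passed and 3 were positive, against 2 without IL10-/- replicate 4 or without IL10+/+ replicate 4. Their mean per array was 7.35 to 7.81 in the arrays labelled IL10-/- and 7.36 to 7.75 in those labelled IL10+/+. Derl3 differed by 0.17 and Txndc5 by 0.18, whereas Tnfrsf13b differed by -0.14 and Sdc1 by -0.11. Of 23 B cell genes, 8 were measured, 0 passed and 7 were positive, with means per array of 7.62 to 7.84 under the IL10-/- label and 7.50 to 7.70 under the IL10+/+ label. Cd79b, a subunit of the B cell receptor, differed by 0.27, Vpreb3 by 0.24 and Ebf1 by 0.13, while Fcmr was the negative gene, at -0.084. Ebf1 read 6.92 in IL10-/- replicate 2, against 6.25 to 6.35 in the other arrays of that label. Without IL10-/- replicate 2, and also without both arrays that stood apart, 4 of these 8 were positive. Of 25 macrophage and monocyte genes, 5 were measured, 0 passed and 3 were positive, against 1 without IL10-/- replicate 2, with means of 7.54 to 8.16 in the arrays labelled IL10-/- and 7.59 to 7.88 in those labelled IL10+/+. Lyz1 differed by -0.42 and Cd68 by -0.04, whereas Ly6c2 differed by 0.23, Lyz2 by 0.15 and Marco by 0.09. Of 16 CD8 T cell and NK cell genes, 6 were measured, 0 passed and 3 were positive, against 5 without IL10-/- replicate 4, with means of 7.87 to 8.18 under the IL10-/- label and 7.83 to 8.30 under the IL10+/+ label. Itga2 differed by 0.23, Gzmk by -0.37 and Fcgr3 by 0.08. A log2 array value has no 0, so absence of these cells could not be read, and their part in the regulators' values was not tested.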

How the data were processed

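Expression was measured on Affymetrix Mouse Gene 2.0 ST arrays. The deposited log2 values were made by the authors with Partek Genomics Suite, per the design text of the series, by RMA background correction, then Partek's correction for GC content, and the mean over a probe set's probes. Affymetrix Expression Console is also named, per the submitters' processing notes. Versions and the probe sets' genome build: not given in the sources used here. RNA of a RIN above 7 was amplified before labelling. The number of arrays limits the precision.

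Of 16378 probe sets, 7358 had 1 gene symbol in the platform annotation, 456 had several and 8564 had none. Symbols were updated through Entrez identifiers to RefSeq (7310 matched). The brightest probe set was taken for each of 6986 genes, without a filter on signal. Chromosomes 1 and 10 to 15 held 99.6% of the 6942 genes that RefSeq places, and other genes were not analysed here.

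Groups were compared with limma 3.58.1 (lmFit, eBayes) in R 4.3.3, IL10-/- minus IL10+/+, with 95% intervals from its moderated SE and p-values adjusted by Benjamini-Hochberg over all genes. The fit was tested on simulated data. Exact permutation tests used scipy 1.17.1. The members and the 16 lists, with 111 of 345 genes measured, were chosen with earlier results of these data known. The text names the 7 members, Il10, in each list the 3 non-members of smallest unadjusted p, and 2 genes of like pattern per member. Ctla4 and Ikzf4 were added as markers. Il18r1, Sdc1, Cd68, Lyz2, Cd83, Ptger4 and Pdcd1 were named after their values were seen. So were Clec10a, Mcm3, Mcm6, Tk1, Il1r2, Lgals1, Lgals3, Fcmr and, as a dendritic cell gene, Wdfy4. The neighbours of the Myb probe sets and the motifs were also chosen after values were seen.

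Alternatives were quantile normalization, median centring, averaging over the probe sets of a gene, genes above the median signal, trend and robust variance, array weights, a replicate block, each array left out and the arrays that stood apart left out.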

Additional observations from a re-analysis of the deposited data

Results flagged for a closer look

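None of the 7 regulators had an array that stood apart from the other 3 of its group. The search covered 136 groups of 4 arrays, over 68 of the genes or probe sets named. In 12 groups an array's gap to the nearest other, as a share of the group's range, was above Dixon's critical value. Chance gives about 1 in 20.

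In IL10-/- replicate 2, one of the arrays with a narrow spread of values, 6 genes stood apart. Irf9 read 8.20 there against 9.29 to 9.42 in the other arrays labelled IL10-/- (share 0.895). Ddit4 read 7.34 against 8.16 to 8.19 (share 0.967) and Btg1 9.84 against 10.37 to 10.40 (share 0.940). Ctla4 read 10.88 against 11.29 to 11.36 (share 0.862) and Adck5, a gene with a pattern like that of Batf, 7.64 against 7.99 to 8.01 (share 0.931). Ebf1 read higher, 6.92 against 6.25 to 6.35 (share 0.839).

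In IL10-/- replicate 3, Hif1a was lowest (11.036 against 11.116 to 11.124, share 0.913) and Socs2 highest (9.03 against 8.35 to 8.44, share 0.870). In IL10-/- replicate 1, Prr5, with a pattern like that of Batf3, was lowest (6.89 against 7.04 to 7.07, share 0.844). In IL10+/+ replicate 1, Derl3 was lowest (6.71 against 7.16 to 7.21, share 0.906) and Hdac4, with a pattern like that of Myb, highest (9.22 against 8.91 to 8.94, share 0.891). In IL10+/+ replicate 4, Arg1 was highest (8.02 against 7.01 to 7.17, share 0.838).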

How the results depend on the processing

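No regulator passed the threshold under any alternative run. The number of genes past it over the whole table was 1 in place of 2 with median centring, with array weights, with the replicate block and without IL10-/- replicate 2 and IL10+/+ replicate 4 together, and it ran from 1 to 4 with single arrays left out (4 without IL10-/- replicate 3). The sign of the Irf4 difference changed with 1 array left out (range -0.23 to 0.045), as did that of Foxo3 (-0.094 to 0.066, and -0.015 with median centring). Myb changed sign with the mean of its probe sets (0.017) and with its dimmer probe set (0.17), an alternative chosen after seeing the data. For list medians, that of other Id, E protein, Myb and Foxo family genes was -0.075 among genes above the median signal, where 1 gene was left. Without both arrays that stood apart, the medians of B cell, innate lymphoid and macrophage genes were 0.021, -0.059 and -0.18, and with single arrays left out the last pair ran from -0.23 to -0.034 and from -0.14 to 0.16. The cause of these shifts was not tested. Replicate numbers are not said to pair samples, and same-numbered arrays did not deviate together (correlations of 0.05, -0.32, 0.03 and -0.19 across genes). By limma, Batf3 had an unadjusted p under 0.05 in 3 of the 16 alternatives. It was 0.0324 with the replicate block, 0.0234 without IL10-/- replicate 1 and 0.0270 without IL10+/+ replicate 3. The adjusted p was 0.999, 0.980 and 0.9998 in that order, and no call among the regulators changed.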
